A study of Mus musculus with 19 samples.

Results

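Signals that support blood vessels were followed through 10 genes in mouse tibialis anterior muscle with and without desmin, the intermediate filament protein that ties neighbouring myofibrils together at their Z-discs. The genes were the secreted ligands Vegfa, Vegfc, Pgf, Angpt1, Angpt2 and Adm, the co-receptor Nrp1, and Hif1a, Epas1 and Egln3, which belong to the cellular response to low oxygen. They were taken by name, from a list drawn up with earlier results of these data known, and each had at least 1 probe set that carries 1 gene symbol only. Together they held 17 of the 20380 such probe sets and stood for 10 of 12393 genes. The probe set with the highest mean over the 19 arrays represented each gene. Of the 10 members, 7 lay in the upper 60% of genes by mean signal, where the comparisons were tested. Vegfc, Pgf and Angpt1 lay below that level, and their values come from the same model fitted to all 12393 genes.

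The muscles came from 4 groups of 129/SVE mice. Adult desmin knockout (KO_Adult, Des(-/-), 5 arrays) was set against adult wild type (WT_Adult, 5 arrays) at an age of 7 to 9 weeks, and aged knockout (KO_Aged, 4 arrays) against aged wild type (WT_Aged, 5 arrays) at 12 to 14 months. Every muscle, wild type included, had gone through 50 eccentric contractions (an active muscle lengthened by force) 12 h before its RNA was taken. No unexercised muscle was analysed here, so each value below is a level after this exercise. Whether each array stands for its own animal is not given in the labels. The p-values weigh group differences against the spread of arrays within groups only, and that spread may be technical. Intensities are printed as deposited, and log2 differences come from quantile-normalized values, so the 2 need not match exactly.

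VEGF-A is the main growth signal of capillary endothelium and acts through receptors on endothelial cells, with neuropilin-1 (Nrp1) as a co-receptor. Placental growth factor (Pgf) binds the receptor Flt1, and VEGF-C acts mostly on lymphatic vessels. The angiopoietins act on the endothelial receptor Tek: Angpt1 stabilises vessels, whereas Angpt2, made by endothelial cells, opposes it in many settings and is raised where vessels are remodelled. Adrenomedullin (Adm) is a peptide that widens vessels and is induced in hypoxia. HIF-1alpha (Hif1a) and HIF-2alpha (Epas1) are the oxygen-regulated parts of the hypoxia-inducible factors and are controlled mostly as proteins. Egln3 encodes PHD3, a prolyl hydroxylase that marks HIF-alpha for destruction and is itself a HIF target. In skeletal muscle, fibres, endothelium and connective tissue cells all contribute to these messages, and a whole-muscle array cannot separate a smaller number of cells of a type from less RNA per cell.

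Some properties of the arrays bear on the members. Des read 72.7 to 879 on the 9 KO arrays and 10749 to 22313 on the 10 WT arrays, so no array went against its genotype label. A poly-A spike-in control (dap) gave 1003 to 2421 on 8 arrays, namely KO_Adult arrays 3, 4 and 5 and all WT_Aged arrays, and 2.37 to 29.7 on the other 11. Aged KO against aged WT therefore lies wholly across this split, and the adult one partly so. Gapdh read at its 3' end relative to its 5' end, a ratio that is high in degraded RNA, was 8.61 on KO_Aged array 2 and 5.01 on KO_Aged array 3, against 0.766 to 0.968 elsewhere. On the first principal component (38.8% of the variance), WT_Adult arrays 4 and 5 and KO_Aged arrays 1 and 4 stood apart from the other arrays without the control. Myofibre markers were bright on every array, with a summed intensity of 204740 to 257403 in KO and 184507 to 348165 in WT muscle, and none of the 9 was at the lowest level.

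The sequences before Adm and Egln3 are shown because these genes carried the clearest differences described below and both are textbook HIF targets. HIF binds a short core, searched here as ACGTG and GCGTG on both strands (CACGT and CACGC when read from the other strand). Each window runs from 250 bases before to 50 after an annotated start site and was taken from RefSeq (GRCm38.p6). Capitals mark the matches. The Adm window is chr7:110627407-110627706 on the plus strand, with matches at positions -90 and -54 from the start site. The Egln3 window is chr12:54203825-54204124 on the minus strand, with a match at -229.
Adm: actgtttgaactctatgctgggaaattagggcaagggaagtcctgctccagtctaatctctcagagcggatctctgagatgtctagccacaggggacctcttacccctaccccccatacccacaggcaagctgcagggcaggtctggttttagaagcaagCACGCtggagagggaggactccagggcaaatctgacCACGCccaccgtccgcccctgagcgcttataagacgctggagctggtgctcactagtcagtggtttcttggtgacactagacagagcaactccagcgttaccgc
Egln3: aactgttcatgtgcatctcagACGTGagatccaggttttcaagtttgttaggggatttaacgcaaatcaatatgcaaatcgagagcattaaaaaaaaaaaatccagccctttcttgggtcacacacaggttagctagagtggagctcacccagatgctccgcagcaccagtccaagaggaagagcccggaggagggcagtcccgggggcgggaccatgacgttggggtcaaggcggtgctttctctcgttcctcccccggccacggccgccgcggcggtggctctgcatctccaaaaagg
Windows were given for 7 members, 9 windows in all, and 6 held a match: those of Adm, Egln3, Nrp1 and Hif1a, and 1 each for Pgf and Vegfa. The windows of Adm and Egln3 lie at the outer end of the gene, whereas that of Hif1a and the matching one of Vegfa lie at start sites inside the gene, and the window at the outer end of Vegfa held no match. Of all 32851 windows of 300 bases, 43.8% held one, so a match is common and describes only these letters.

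In adult muscle, 1 of the 7 tested members was higher without desmin (Adm) and 1 was lower (Epas1), in limma's test at a Benjamini-Hochberg adjusted p under 0.05. Among all 7436 tested genes 7.21% were higher and 9.39% lower, so counts of 1 are about what genes at large gave. No tested member had groups of adult arrays that did not overlap, a pattern shown by 4.44% of all genes with KO higher and by 5.61% with KO lower. In aged muscle, Egln3 was higher (1 of 7, against 17.1% of all genes) and Adm and Angpt2 were lower (2 of 7, against 12.3%). The aged groups did not overlap for Egln3, with KO higher (18.4% of all genes), nor for Angpt2 and Nrp1, with KO lower (13.0%). With the spike-in split as a term in the model, no member passed in adult muscle (6.67% of all genes did) or in aged muscle (5.45%). At an unadjusted p under 0.05 limma then had 2 members in adult muscle (Nrp1 and Adm) and 4 in aged muscle (Hif1a, Epas1, Egln3 and Adm). The plot of all members by array shows the values behind these counts.

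**Figure D1:**
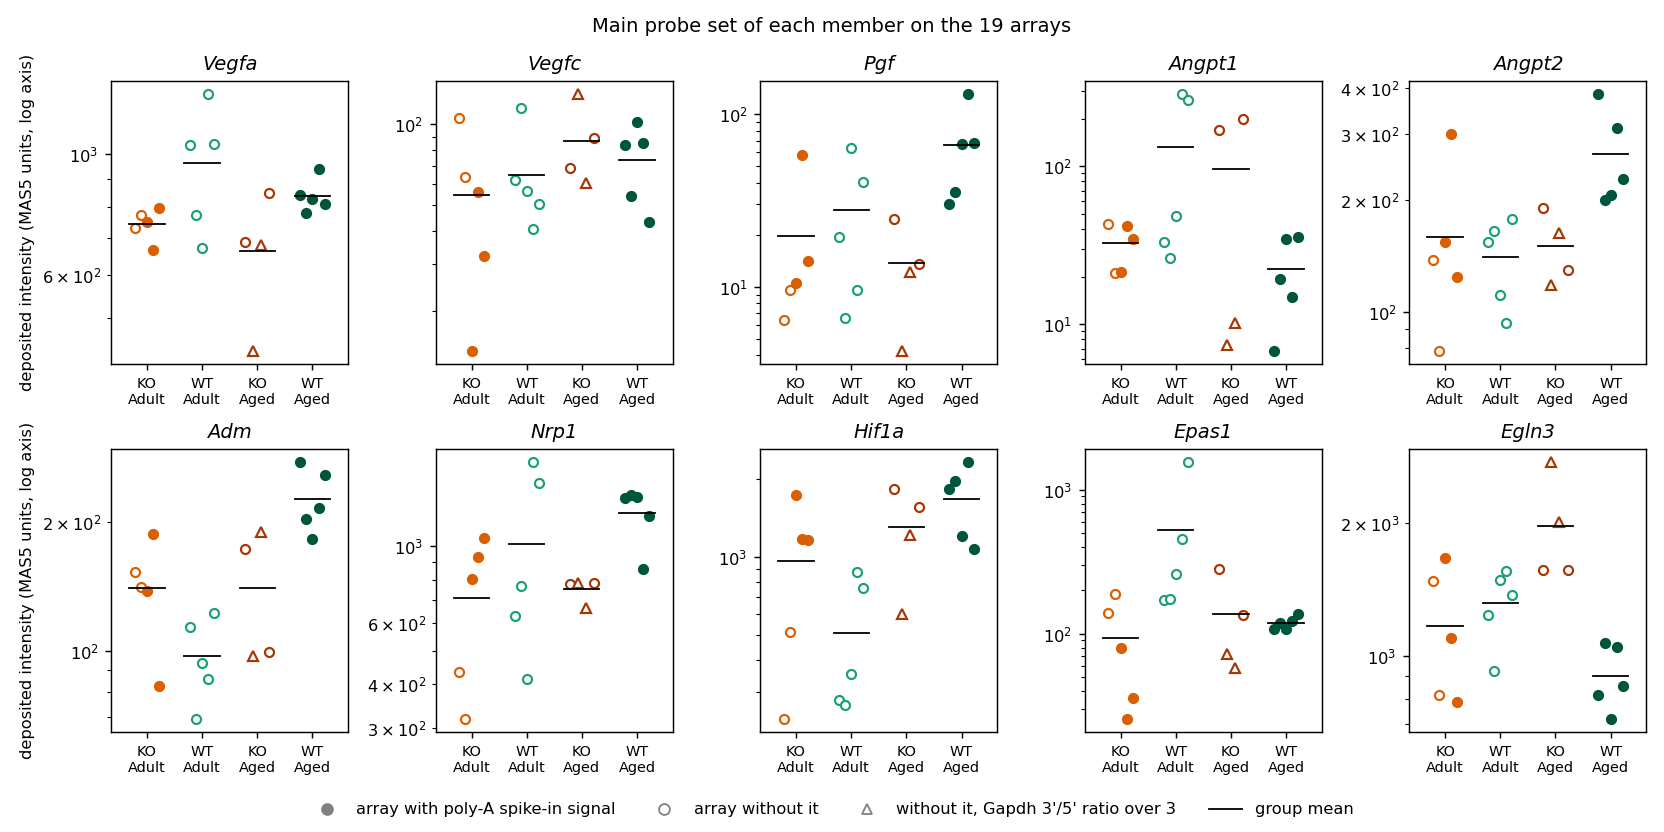
Deposited intensity (log axis) of the main probe set of each member on the 19 arrays, in the groups KO_Adult, WT_Adult, KO_Aged and WT_Aged; filled points are arrays with poly-A spike-in signal, triangles are the 2 arrays with a high Gapdh ratio and lines are group means. Egln3 ran from 1564 to 2747 in KO_Aged and from 718 to 1066 in WT_Aged, and all 4 of the Angpt1 values above 100 were WT_Adult arrays 4 and 5 and KO_Aged arrays 1 and 4.

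Vegfa, the central ligand, was not called at either age on its main probe set. In adult muscle it read 731, 774, 751, 668 and 794 in KO, against 1037, 774, 671, 1287 and 1043 in WT. The KO arrays lay close together, and the 3 brightest WT arrays stood above all of them. Means were 744 ± 48.7 in KO_Adult and 962 ± 244 in WT_Adult (SD, n = 5 each), a log2 difference of -0.32 (95% interval -0.68 to 0.04, adjusted p = 0.202). In aged muscle Vegfa read 688, 435, 681 and 848 in KO, against 839, 778, 825, 938 and 810 in WT. KO_Aged arrays 1, 2 and 3 were below every WT array and array 4 overlapped them. The difference was -0.39 (95% interval -0.77 to -0.01, adjusted p = 0.111). Without the 4 arrays that stood apart it was -0.58 (adjusted p = 0.0302). That fit leaves arrays 2 and 3, the 2 with a high Gapdh ratio, as the only KO_Aged arrays. With those 2 left out instead, the difference was -0.20 (SE 0.21, adjusted p = 0.568).

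The second Vegfa probe set differed from the main one in adult muscle. It read 266, 366, 107, 133 and 95.1 in KO, against 455, 406, 406, 543 and 1020 in WT, and the groups did not overlap. After normalization the nearest pair almost met, at 8.65 in KO and 8.66 in WT on the log2 scale. How common such separation was among all probe sets was not computed. When every probe set was tested on its own, this one fell by 1.51 on the log2 scale (SE 0.41, adjusted p = 0.0351). With the split as a term its difference was -0.65 (SE 0.46, adjusted p = 0.553): the 3 lowest KO arrays are those with spike-in signal, and the WT_Aged arrays, which also carry it, read 79.2 to 184. In aged muscle this probe set differed by 0.08 (SE 0.44, adjusted p = 0.925). Of the 17 probe sets of the members, 2 passed in adult muscle in this test, where 6.60% of all probe sets did, and 6 passed in aged muscle, where 16.8% did.

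**Figure D2:**
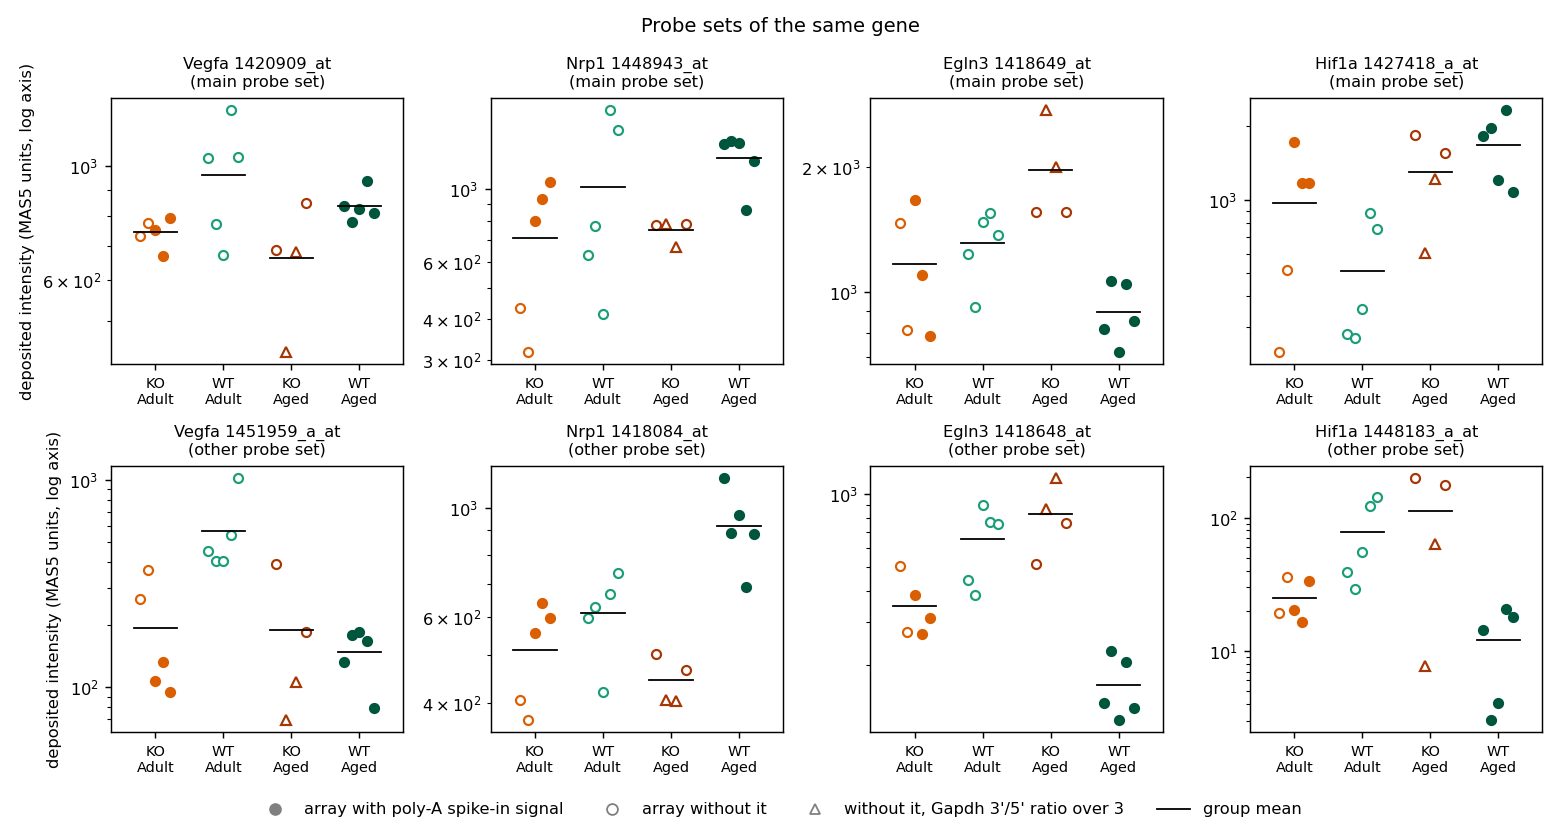
Deposited intensity (log axis) of the main probe set (top row) and of another probe set (bottom row) of Vegfa, Nrp1, Egln3 and Hif1a on the 19 arrays, with symbols for spike-in signal and Gapdh ratio and a line at each group mean. The second Vegfa probe set separates adult KO (95.1 to 366) from adult WT (406 to 1020), and the 2 Hif1a probe sets order the aged groups in opposite ways.

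Angpt2 was lower in aged KO muscle. It read 191, 118, 163 and 130 in KO_Aged, against 385, 200, 206, 313 and 228 in WT_Aged. Every KO array was below every WT array, although the nearest pair, 191 and 200, almost met. Means were 150 ± 32.8 (SD, n = 4) in KO_Aged and 266 ± 80.5 (SD, n = 5) in WT_Aged, a fall by 0.83 on the log2 scale (SE 0.30, adjusted p = 0.0431 in limma). In adult muscle Angpt2 read 138, 78.5, 155, 301 and 124 in KO, against 154, 165, 111, 93.3 and 178 in WT, with a difference of 0.28 (95% interval -0.31 to 0.87, adjusted p = 0.515). KO_Adult array 4 alone was above every other adult array. The aged call was lost without any 1 of 6 of the 9 aged arrays (adjusted p up to 0.117), and with the split as a term the difference was -0.06 (SE 0.46, adjusted p = 0.948).

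The 3 dim ligands gave weaker evidence. Pgf read 24.8, 4.23, 12.1 and 13.6 in KO_Aged, against 29.9, 35.2, 66.6, 131 and 68.3 in WT_Aged, so that no KO array reached the lowest WT array. Over all 12393 genes the difference was -2.11 (SE 0.57, adjusted p = 0.0166). Dropping the 2 arrays with a high Gapdh ratio gave -1.75 (adjusted p = 0.163); it was -1.87 (adjusted p = 0.0575) without KO_Aged array 2 alone, and -0.65 (SE 0.89, adjusted p = 0.756) with the split as a term. In adult muscle Pgf ranged from 6.39 to 57.8 in KO and from 6.60 to 63.2 in WT, which overlap almost wholly. Vegfc ranged from 14.2 to 106 in KO_Adult and from 40.5 to 115 in WT_Adult, and from 60.5 to 130 in KO_Aged and 43.2 to 102 in WT_Aged. Its differences of -0.08 (SE 0.39) and 0.15 (SE 0.41) were smaller than their errors.

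Angpt1 was high on the 4 arrays that stood apart. It read 286 and 263 on WT_Adult arrays 4 and 5 and 169 and 199 on KO_Aged arrays 1 and 4, against 6.73 to 48.7 on the other 15 arrays. The adult difference was -1.03 (SE 0.76, adjusted p = 0.448) with these arrays and 0.03 (SE 0.38) without the 4. In aged muscle it was 0.78 (SE 0.81, adjusted p = 0.545) with them and -1.08 (SE 0.44, adjusted p = 0.0978) without them. Without them, the only KO_Aged arrays are those with a high Gapdh ratio. When the 2 arrays with a high Gapdh ratio were left out instead, which leaves arrays 1 and 4 as the only KO_Aged arrays, it was 2.63 (SE 0.74, adjusted p = 0.0399). No direction by genotype can be given for Angpt1.

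Adm changed with genotype in opposite directions at the 2 ages. In adult muscle it read 153, 141, 138, 188 and 82.5 in KO, against 113, 69.0, 93.5, 85.8 and 123 in WT. KO_Adult arrays 1 to 4 were above every WT array, and KO_Adult array 5 was above only 1 of them. Means were 140 ± 38.0 in KO_Adult and 96.9 ± 21.5 in WT_Adult (SD, n = 5 each), and Adm rose by 0.75 on the log2 scale, 1.68-fold (SE 0.22, adjusted p = 0.0248 in limma). In aged muscle Adm read 173, 96.9, 190 and 99.4 in KO, against 277, 203, 182, 216 and 257 in WT. KO_Aged arrays 2 and 4 were far below the WT range, array 1 was just below it, and array 3 was inside it. Means were 140 ± 48.6 (SD, n = 4) and 227 ± 39.1 (SD, n = 5) in KO_Aged and WT_Aged, a fall by 0.77 (SE 0.23, adjusted p = 0.0177).

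Adm thus had nearly the same mean in both KO groups, and the WT groups lay on either side of it. The genotype effect in aged minus that in adult muscle was -1.53 (SE 0.32, adjusted p = 0.0025), and this difference passed in every fit that left out 1 array. The values with the split as a term were as large, 0.86 (SE 0.29, adjusted p = 0.0845) in adult and -0.95 (SE 0.39, adjusted p = 0.144) in aged muscle, but neither passed. Each genotype call also rested on few arrays. The adult one was lost without KO_Adult array 3 or 4 or WT_Adult array 2 or 4 (adjusted p up to 0.0685). The aged one was lost without KO_Aged array 2 or 4 (adjusted p up to 0.0746). Leaving out the 4 arrays that stood apart gave -0.58 in aged muscle (SE 0.28, adjusted p = 0.114), which did not pass. The only KO_Aged arrays in that fit are those with a high Gapdh ratio. The adult difference of 0.72 (adjusted p = 0.0484) then still passed. So did the genotype effect in aged minus that in adult muscle, at -1.31 (adjusted p = 0.0152).

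Nrp1, the co-receptor of VEGF-A, was lower on every aged KO array than on any aged WT array, with 775, 784, 663 and 783 in KO_Aged, against 1373, 1398, 1385, 860 and 1215 in WT_Aged. The KO values were tight and the WT values were not, and the difference of -0.72 on the main probe set (SE 0.38, adjusted p = 0.156) did not pass. The second probe set showed the same separation with less spread, at 504, 405, 404 and 467 in KO_Aged, against 1152, 888, 968, 690 and 886 in WT_Aged. Tested on its own it fell by 1.05 (SE 0.20, adjusted p = 0.00191), and the value was -1.0 (adjusted p = 0.0276) once the 2 arrays with a high Gapdh ratio were dropped. The third gave -1.17 (SE 0.40, adjusted p = 0.0534). With the split as a term the 3 probe sets gave 0.48, -0.51 and 0.21, none of which passed.

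In adult muscle the main Nrp1 probe set read 433, 317, 801, 929 and 1054 in KO, against 631, 769, 416, 1744 and 1512 in WT. Within KO the 3 high values were the arrays with spike-in signal, and within WT the 2 high values were the arrays that stood apart. The difference was -0.46 (SE 0.36, adjusted p = 0.395). Among the arrays without spike-in signal it was -1.18 (SE 0.40, adjusted p = 0.0863).

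Of the hypoxia factors, Epas1 was the one lower in adult KO muscle. It read 139, 189, 79.7, 25.6 and 36.0 in KO, against 171, 174, 258, 452 and 1562 in WT. Only KO_Adult array 2 reached into the WT range. Means were 94.0 ± 69.7 in KO_Adult and 523 ± 592 in WT_Adult (SD, n = 5 each), the WT mean being carried largely by 1 array, and on the log2 scale Epas1 fell by 2.04 (SE 0.57, adjusted p = 0.0206 in limma). The 3 lowest KO arrays carry spike-in signal and the 2 highest WT arrays are among the 4 that stood apart. Among the arrays without spike-in signal the difference was -0.97 (SE 0.67, adjusted p = 0.389), without the 4 arrays it was -1.21 (SE 0.47, adjusted p = 0.0736), and the call was also lost without KO_Adult array 4 (-1.68) or 5 (-1.82). In aged muscle Epas1 ran from 58.4 to 280 in KO and from 108 to 138 in WT, a difference of -0.12 (SE 0.60, adjusted p = 0.895), which was -1.90 (SE 0.90, adjusted p = 0.199) with the split as a term.

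Hif1a was spread over a wide range inside the groups. In adult muscle its main probe set read 236, 514, 1734, 1176 and 1168 in KO, against 281, 269, 354, 879 and 757 in WT. The KO arrays with spike-in signal were all above the WT range and those without it were not. Inside KO_Adult, arrays with the signal exceeded those without by 1.81 (SE 0.53, adjusted p = 0.0199). The genotype difference was 0.84 (SE 0.46, adjusted p = 0.217), and it was -0.24 among the arrays without the signal. In aged muscle Hif1a read 1842, 603, 1216 and 1558 in KO, against 1827, 1966, 1208, 2337 and 1071 in WT. These groups overlapped, with a difference of -0.42 (95% interval -1.44 to 0.61, adjusted p = 0.541). The sign turned with the split as a term, to 1.39 (SE 0.65, adjusted p = 0.194).

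Of the other Hif1a probe sets, the next brightest gave 0.84 in adult muscle, as the main one did, and -0.87 in aged muscle, a larger difference than the -0.42 of the main one, and neither passed. The third in brightness, also dim, read 198, 7.76, 62.9 and 175 in KO_Aged, against 14.3, 3.03, 4.07, 20.7 and 18.0 in WT_Aged. It rose by 2.07 (SE 0.63, adjusted p = 0.0321), opposite to the main one. Its WT_Aged values of 3.03 and 4.07 lie below 4.76, the constant added before taking log2. Its 4 brightest arrays were WT_Adult arrays 4 and 5 and KO_Aged arrays 1 and 4, as for Angpt1. On the dimmest probe set the aged groups overlapped, with 5.96 to 38.7 in KO and 1.99 to 46.7 in WT. Which transcripts the probe sets read was not examined here.

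Egln3, the HIF prolyl hydroxylase, had the clearest difference of the 10 genes in aged muscle. It read 1564, 2747, 2005 and 1565 in KO_Aged, against 814, 1066, 718, 1045 and 853 in WT_Aged, and the lowest KO array was well above the highest WT array. Means were 1970 ± 558 (SD, n = 4) in KO_Aged and 899 ± 151 (SD, n = 5) in WT_Aged, and Egln3 rose by 1.09 on the log2 scale, 2.12-fold (SE 0.23, adjusted p = 0.00184 in limma). The second probe set read 518, 867, 1162 and 757 in KO_Aged, against 139, 227, 119, 206 and 132 in WT_Aged, and rose by 2.21 (SE 0.30, adjusted p = 0.00016). The 2 brightest KO arrays on the main probe set are those with a high Gapdh ratio. Without them the main probe set gave 0.81 (SE 0.27, adjusted p = 0.0554) and the second 1.82 (SE 0.36, adjusted p = 0.00716). With the split as a term they gave 1.06 (SE 0.39, adjusted p = 0.108) and 1.94 (SE 0.51, adjusted p = 0.0832). With this term alone the sizes held while the errors grew. With the term and without the 2 arrays of high Gapdh ratio, the main probe set gave 0.78. Its unadjusted p in limma was then not under 0.05.

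In adult muscle Egln3 read 1473, 814, 1666, 1099 and 787 in KO, against 1239, 924, 1481, 1553 and 1374 in WT. KO_Adult arrays 2 and 5 were below every WT array and array 3 was above, and the difference was -0.23 (95% interval -0.68 to 0.22, adjusted p = 0.473). The genotype effect in aged minus that in adult muscle was 1.32 (SE 0.31, adjusted p = 0.00609), and 3.0 (SE 0.41, adjusted p = 0.000391) on the second probe set. By group mean the order was KO_Aged, WT_Adult (1314 ± 248), KO_Adult (1168 ± 393) and WT_Aged. The test between the neighbours WT_Adult and KO_Adult did not pass. On the second probe set they averaged 348 in KO_Adult and 651 in WT_Adult, a larger difference of -0.79 (SE 0.28, adjusted p = 0.101) that did not pass either.

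**Figure D3:**
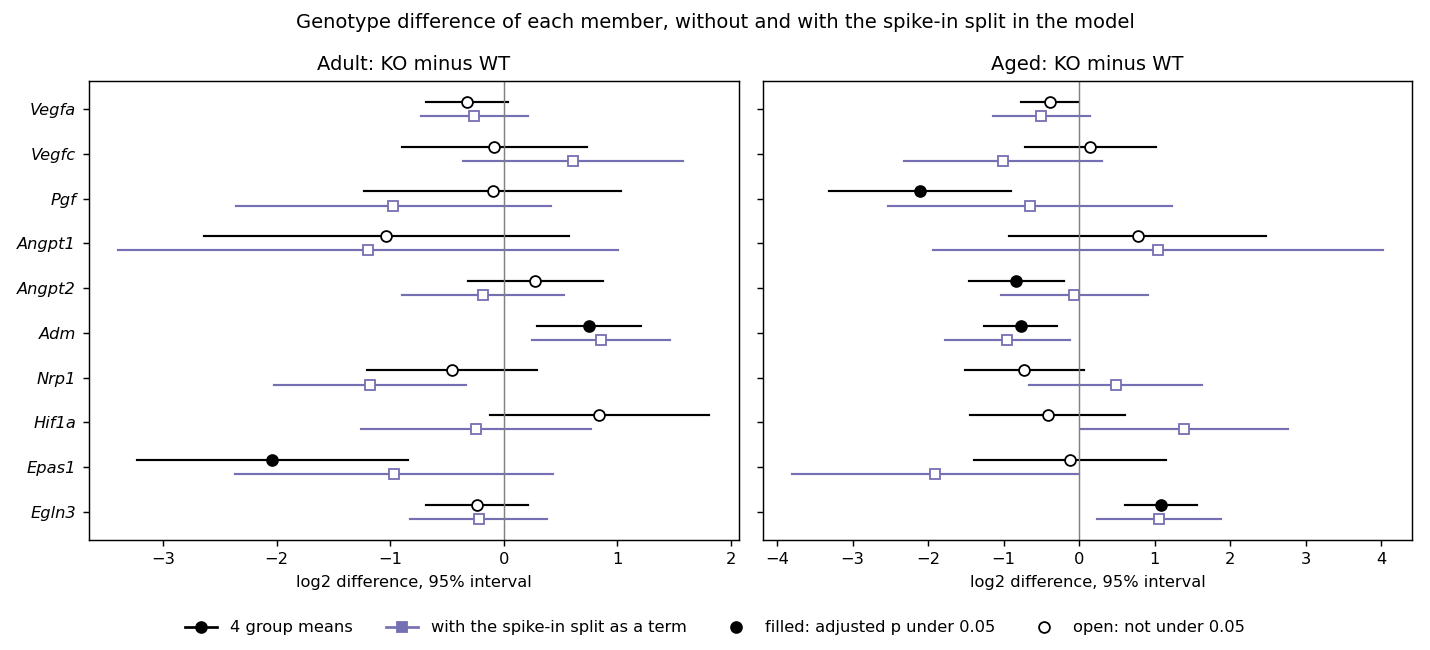
Log2 difference, KO minus WT, of each member in adult (left) and aged muscle (right), with 95% intervals; circles are from the model of 4 group means and squares from the model with the spike-in split as a term, and filled symbols have an adjusted p under 0.05. Adm lies to the right of 0 in adult muscle (0.75) and to the left in aged muscle (-0.77), Egln3 keeps its aged value with the term (1.06), and no square is filled.

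Interaction tests compared the genotype effects between ages, and 2 of the 7 members passed, Egln3 upward (14.5% of all genes were) and Adm downward (10.7%). Angpt2 at -1.12 (SE 0.41, adjusted p = 0.054) and Epas1 at 1.91 (SE 0.83, adjusted p = 0.0988) did not. With the split as a term Adm was at -1.81 (SE 0.60, adjusted p = 0.216) and Egln3 at 1.28 (SE 0.59, adjusted p = 0.296), while Angpt2 was at 0.12 and Epas1 at -0.94.

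Ages were compared within each genotype. In aged against adult WT muscle, 3 of 7 were higher (17.9% of all genes were) and 2 were lower (21.0%). Adm rose by 1.36 (SE 0.22, adjusted p = 0.000247), with 182 to 277 in WT_Aged and 69.0 to 123 in WT_Adult. Hif1a rose by 1.85 (SE 0.46, adjusted p = 0.00506) and Angpt2 by 1.03 (SE 0.28, adjusted p = 0.00907). For all 3 the groups did not overlap, but how common this was among all genes was not computed for this comparison. Epas1 fell by 1.50 (SE 0.57, adjusted p = 0.0448) and Egln3 fell by 0.60 (SE 0.22, adjusted p = 0.0361). All WT_Aged arrays carry the spike-in signal and no WT_Adult array does, so age and this split cannot be told apart within wild type. Tested on their own, the second probe sets of Vegfa and Egln3 fell by 1.83 (SE 0.41, adjusted p = 0.00508) and by 1.89 (SE 0.28, adjusted p = 0.000413). The dim Hif1a probe set fell by 1.92 (SE 0.60, adjusted p = 0.0279), opposite to the main one. Markers of other cells differed in the same comparison: 5 of 5 tested neutrophil markers were higher (median 2.26), as were 5 of 11 macrophage markers (median 0.71), while 8 of 18 endothelial markers were lower and 1 higher. The 6 neutrophil markers summed to 2506 to 13393 in WT_Aged and 533 to 1772.5 in WT_Adult. The 12 macrophage markers summed to 3820 to 13518 in WT_Aged and 3999 to 6750.1 in WT_Adult, and no marker of these lists was at the lowest level. The part of these cells in the members' values was not tested. Through the model with the split as a term, Adm kept its size at 1.54 (SE 0.38, adjusted p = 0.127), Hif1a was at 0.04 and Epas1 at 0.28, against -1.50 without the term.

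In aged against adult KO muscle none of the 7 passed, where 3.71% of all genes were higher and 3.60% lower. In limma's test 1 member, Egln3, had an unadjusted p under 0.05, at 0.72 (SE 0.23, adjusted p = 0.059). KO_Aged arrays carry no spike-in signal and 3 of the 5 KO_Adult arrays do. With the split as a term Hif1a rose by 1.68 in KO_Aged (SE 0.50, adjusted p = 0.0418), and Vegfa was at -0.33 (SE 0.23, adjusted p = 0.363). Without the term, 3 of 5 neutrophil markers were higher in KO_Aged, and 2 of 11 macrophage markers were higher and 1 lower.

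Other ligands of the pathway also differed by genotype. In adult muscle 1 of 15 tested ligands was higher and 3 were lower; their median was -0.31, against 0.04 over all genes, of which 7.21% were higher and 9.39% lower. Vegfb, a VEGF relative that binds Flt1, averaged 950 ± 110 in KO_Adult and 3028 ± 868 in WT_Adult (SD, n = 5 each) and fell by 1.63 (SE 0.21, adjusted p = 5.09e-05). Fgf1, an acidic fibroblast growth factor abundant in muscle, fell by 1.92 (SE 0.25, adjusted p = 8.14e-05), with 447 to 1493 in KO_Adult and 2191 to 2859 in WT_Adult. Vegfd, which like VEGF-C acts on lymphatic vessels, rose by 1.98 (SE 0.27, adjusted p = 0.000116), with 272 to 482 in KO_Adult and 79.3 to 191 in WT_Adult. These 3 passed with the split as a term as well, at -1.51, -2.12 and 1.65. The ephrin Efna1 fell by 0.61 and did not pass with the term.

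In aged muscle 3 of these 15 ligands were higher and 6 lower; their median was -0.56, against 0.08 over all genes, of which 17.1% were higher and 12.3% lower. Fgf1 fell by 2.95 (SE 0.27, adjusted p = 1.73e-06), with 426 to 731 in KO_Aged and 3065 to 4711 in WT_Aged, and passed with the split as a term at -2.61 (adjusted p = 0.00574). Pdgfa, a growth factor for mesenchymal cells, fell by 2.64, the EGF-family ligand Hbegf fell by 2.56 and the arterial ephrin Efnb2 fell by 1.33, and none of these passed with the term. Vegfb was at -0.56 (adjusted p = 0.061). Of 8 tested angiogenesis inhibitors, none passed in adult muscle, where limma had 1 at an unadjusted p under 0.05 (Cxcl10, at -1.77 with adjusted p = 0.0455 once the split was a term), and 4 were lower in aged muscle: Cxcl10, an interferon-induced chemokine (-2.64), Timp3, an inhibitor of metalloproteinases and VEGF receptor signalling (-1.45), thrombospondin-2 (Thbs2, -0.72) and Adamts1 (-1.35), none of which passed with the term.

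Receptors of these ligands were lower in adult KO muscle, 5 of 9 tested with none higher, and a median of -0.91. Of all genes 9.39% were lower and 7.21% higher there, with a median of 0.04. Tie1, the partner of Tek, averaged 88.2 ± 33.4 in KO_Adult and 390 ± 58.0 in WT_Adult (SD, n = 5 each), and fell by 1.98 (adjusted p = 9.2e-06). Ramp2, which turns Calcrl into an adrenomedullin receptor, fell by 1.66, the VEGF receptor Flt1 by 1.39, Tek by 0.91 and Flt4 by 0.92. All but Flt4 passed with the split as a term, with values of -1.55, -1.46, -1.68 and -0.77. Kdr, the main signalling receptor of VEGF-A, averaged 174 ± 40.5 in KO_Adult and 323 ± 106 in WT_Adult, a difference of -0.68 (adjusted p = 0.12). In aged muscle Flt1, Nrp2 and Calcrl were lower (-0.67, -0.86 and -1.69) and Tie1 was higher (0.86). These were 3 and 1 of 9, where 12.3% of all genes were lower and 17.1% higher. With the term none of the 9 passed. In the model without the term, dropping the 2 arrays with a high Gapdh ratio left 1 lower and 0 higher.

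Endothelial markers were lower beside them. In adult muscle 14 of 18 tested markers were lower and none higher, with a median of -0.98; the summed intensity of the 19 markers on the array was 16432 to 19200.4 in KO_Adult and 28497 to 33029.5 in WT_Adult. In aged muscle 11 of 18 were lower, with a median of -0.75, and sums of 14412 to 19505 in KO_Aged and 25698 to 28473 in WT_Aged. For this and the other marker lists, the shares of all genes were 9.39% lower and 7.21% higher in adult muscle. In aged muscle they were 12.3% lower and 17.1% higher. Endoglin (Eng), a TGF-beta co-receptor, fell by 1.52 in adult muscle, the endothelial transcription factor Sox17 fell by 1.71 in aged muscle and the phosphatase Ptprb fell by 0.78 there. Under the split term 10 of 18 were lower in adult muscle (median -0.93) and 4 of 18 in aged muscle (median -0.69). No marker of the list was at the lowest level. Angpt2 and most of the receptors are made largely by endothelial cells, and Nrp1 in part, and the part of this shift in their values was not tested. The myofibre list had 0 of 9 markers called at either age, with medians of -0.01 in adult and 0.04 in aged muscle, and limma had 0 at an unadjusted p under 0.05. Of the remaining lists, 1 of 10 mural cell markers was higher and 3 lower in adult KO and 1 higher and 2 lower in aged KO muscle, and fibroblast markers had 0 of 9 higher and 1 lower in adult and 3 higher and 0 lower in aged KO muscle. None of 11 macrophage or 5 neutrophil markers passed at either age. At an unadjusted p under 0.05 limma had 2 macrophage markers in adult and 1 in aged muscle, and 1 neutrophil marker in adult and 0 in aged muscle.

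The calls in the oxygen-sensing machinery were all lower, 2 of 9 in adult and 1 of 9 in aged muscle. Of all genes, 9.39% were lower in adult and 12.3% in aged muscle. Under another normalization, median centring of the arrays, 1 of the 9 was higher and 0 lower in adult muscle. Of 9 tested parts of the HIF pathway, Cited2 and Egln1 were lower in adult KO muscle (-0.75 and -0.49), where the median was -0.46 and limma had 4 at an unadjusted p under 0.05. Hif3a was lower in aged KO muscle, where the median was 0.08 (-1.10, and -1.95 with the split as a term, adjusted p = 0.025). Egln1, the main oxygen-sensing hydroxylase in most tissues, passed with the term too (-0.74, adjusted p = 0.0212), and Cited2 did not (-0.77, adjusted p = 0.075). Of 23 HIF targets outside the 10 genes, 1 was higher and 1 lower in adult muscle (median -0.02), against 7.21% and 9.39% of all genes. Slc16a3, the lactate exporter MCT4, fell by 2.71 (SE 0.44, adjusted p = 0.000588), and passed with the term at -1.53 (adjusted p = 0.0346). Vldlr rose by 0.76 and did not pass with the term (0.28, adjusted p = 0.501). In aged muscle 3 targets were higher and 2 lower (median 0.13), which is no larger a share than the 17.1% and 12.3% of all genes. Mxi1 (0.68), the mitophagy receptor Bnip3 (0.59) and Slc16a3 (1.60) rose, and the histone demethylase Kdm3a (-1.0) and Ddit4 (-1.14) fell. With the split as a term Ddit4 alone of these 5 passed, at -1.91 (adjusted p = 0.0246), and Slc16a3 was at -0.36.

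**Figure D4:**
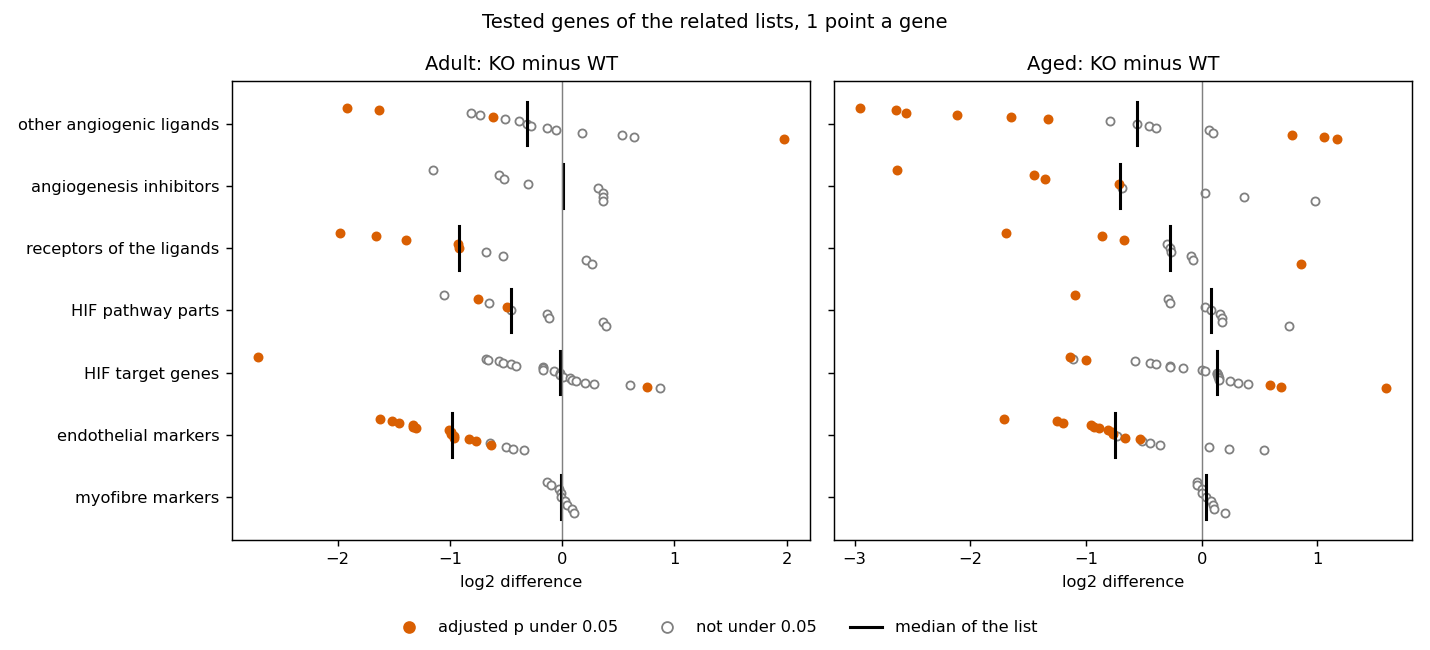
Log2 difference, KO minus WT, of each tested gene in 7 related lists, in adult (left) and aged muscle (right); orange points have an adjusted p under 0.05 and the bar is the median of the list. In adult muscle receptors (median -0.91) and endothelial markers (-0.98) lie mostly left of 0, while HIF targets (-0.02) and myofibre markers (-0.01) are centred near it.

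Across the 19 arrays the genes most like each member were listed by Pearson's r of log2 values, as a description, since the arrays share the 4 groups and the split. Hif1a had the closest companions, Mob1a (r = 0.971), the aryl hydrocarbon receptor Ahr (0.953) and the matrix proteoglycan versican, Vcan (0.946). Nrp1 was closest to Cavin2 (0.923), a caveolar protein abundant in endothelium. Angpt1 was closest to Usp13 (0.858) and Angpt2 to Myc (0.850), Egln3 to Sel1l3 (0.850), Epas1 to the junctophilin Jph1 (0.857) and Adm to Snhg6 (0.822). Vegfa had its highest r with Metap1d, at 0.798.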

How the data were processed

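RNA of mouse tibialis anterior muscle was measured on 19 Affymetrix arrays. Per the submitters' processing notes the arrays were summarised with MAS5 (no version given), and the deposited table holds its linear intensity for every probe set on every array. Detection calls were left out. Of 22690 probe sets, 64 are controls; 20380 have 1 gene symbol in the platform annotation, 691 several and 1619 none.

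The deposited values were taken as log2(value + 4.76), the pseudocount being percentile 10 of all values, so a fold understates the change of dim genes. Array medians spanned 0.63, above a limit of 0.5, and arrays were quantile normalized. Each gene was read from its brightest probe set, and tests covered 7436 genes, the upper 60% by mean. All arrays entered 1 model of 4 group means (lmFit and eBayes of limma 3.58.1, run in R 4.3.3), with Benjamini-Hochberg adjustment over all tested genes and a threshold of 0.05. Plots used matplotlib 3.10.9 and tables numpy 2.4.6 and pandas 2.3.3, in Python 3.11.15. Fits were tested on simulated data of 7436 genes with independent noise. In these, 100 genes were changed by 1 and 100 by 2 on the log2 scale. For adult KO against WT 61% and 93% of them were recovered, and for aged KO against WT 58% and 91%. Of the unchanged genes 5 and 4 were called. The simulated arrays held no spike-in split and no high Gapdh ratio, so these shares do not cover either. The number of arrays limits the precision.

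The members and the lists were chosen with earlier results of these data known. The text names all 10 members, Des, up to 4 genes with the smallest p from each list and comparison, and up to 3 genes most correlated with a member; Flt4, Kdr and the aged values of Vegfb and Slc16a3 fall outside this rule and were named after their values were seen. Alternatives covered normalization, pseudocount, filter, choice of probe set, groups in the fit, array weights, variance model, the spike-in split, the Gapdh ratio and each array left out. The split term together with leaving out the arrays of high Gapdh ratio, leaving out the 4 arrays that stood apart, every probe set on its own and comparisons within the split were chosen after seeing the data.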

Additional observations from a re-analysis of the deposited data

Results flagged for a closer look

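The Nrp1 main probe set had 1 low array in WT_Aged, array 4, which read 860. On normalized log2 values its gap to the nearest other array was 0.714 of the whole range of the group. Among 40 groups of arrays examined in this way, 1 had such an array, and chance marks about 5% of groups.

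The genotype effect on Egln3 in aged muscle differed from that in adult muscle by 1.32 on the log2 scale. For Adm the same difference was -1.53, with KO above WT in adult and below it in aged muscle. Both were tested as interactions in limma, and both lie across the spike-in split, whose part in them was not tested apart from the values with the split as a term given above.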

How the results depend on the processing

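The number of tested members called was 2 in adult KO against WT, 3 in aged KO against WT, 5 in aged against adult WT, 0 in aged against adult KO and 2 for the interaction. Leaving out each array in turn gave 0 to 3, 1 to 3, 3 to 5, 0 to 1 and 2 to 4, in that order of comparisons. The lowest adult count came without KO_Adult array 4, and the lowest aged counts without KO_Aged array 2 or 4. With the split as a term the counts were 0, 0, 0, 1 and 0, alone or without the 2 arrays of high Gapdh ratio. At an unadjusted p under 0.05 limma then had 2, 4, 1, 3 and 2 members with the term alone. Without these arrays as well it had 2, 2, 1, 1 and 2. Egln3 and Epas1 were then not among those of aged KO against WT. The split term can be estimated only through KO_Adult, which has arrays on both sides. The adult count was 0 among the arrays without spike-in signal and 0 with only the groups compared, where 2 members each had an unadjusted p under 0.05. It was 1 without normalization, 1 without the 4 arrays that stood apart and 1 with no filter, and 3 with the mean of all probe sets (Vegfa then at -0.91, adjusted p = 0.0188) and 3 with array weights. The aged genotype count was 4 with the mean of all probe sets, with only the groups compared and with array weights, Nrp1 passing in each. Without the 4 arrays that stood apart, where the only KO_Aged arrays are the 2 of high Gapdh ratio, it was 2, Vegfa and Egln3. Adm and Angpt2 then had no unadjusted p under 0.05 in limma. With the upper 40% of genes the counts were 0, 1, 2, 0 and 1, since Angpt2, Epas1 and Adm are then not tested. Without the 2 arrays of high Gapdh ratio the aged genotype count was 1. In aged against adult WT it was 3 with no filter. In aged against adult KO it was 1 without normalization, 1 with the mean of all probe sets and 1 without the 4 arrays. Array weights gave 6 for the interaction. Apart from these cases the cause was not tested. Epas1 in aged against adult WT turned to 0.28 with the split as a term, with or without the arrays of high Gapdh ratio. Under median centring the median over all genes was 0.19 for adult KO against WT, against 0.04 here, and -0.13 for the interaction, against 0.04. Over single members and all alternatives, 1350 results counted as the same. These were called in both fits with the same sign, or called in neither with a shift below the SE, whatever the sign. Another 79 lost the call, 37 gained it, and 97 that were called in neither fit shifted by the SE or more. The 2 that reversed changed sign and were called in at least 1 of the fits. No paired analysis was possible because the labels give no replicate numbers. Titles end in codes of unstated meaning, some sharing their leading digits, such as those of KO_Aged array 4 and WT_Aged arrays 4 and 5; they were not used as a batch. The spike-in comparison among arrays without signal could not be run for the aged comparison, age in WT or the interaction, because WT_Aged has no such array.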
